A study of Caenorhabditis elegans with 4 samples.

Results

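The levels of 10 genes that encode glutamate receptors were described in adult neurons labeled by *Pacr-2*::*gfp*. The genes were taken by name, as *glr-1* to *glr-6*, *nmr-1*, *nmr-2*, *mgl-1* and *mgl-2*, and each was found once among the 41560 gene symbols of the deposited expression values. The study compared *acr-2(gf)* neurons, from strain CZ5808, with wild-type neurons, from strain CZ631, with 2 samples of each. CZ5808 carries the *juIs14* transgene, in which the *acr-2* promoter drives GFP, and a gain-of-function allele of *acr-2*, a subunit gene of a neuronal acetylcholine receptor. CZ631 carries *juIs14* alone, and both strains were collected as young adults after 72 hours at 20°C on plates of bacteria, starting from arrested larvae. Every value below is of the 2 wild-type libraries. Those of *acr-2(gf)* were not analysed here, and no comparison between the strains was made.

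Cells positive for GFP were collected by FACS, which sorts single cells by fluorescence. As the study describes it, the transgene marks the cholinergic motoneurons of the ventral cord and also some neurons of the head and tail that were not identified. The libraries are therefore a mixture of neuron classes. A lower level in such a mixture can come from fewer cells of a type or from less RNA per cell, and these cannot be told apart here.

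Glutamate is a fast excitatory transmitter in *C*. *elegans* as in vertebrates. Ionotropic receptors are cation channels built from 4 subunits that open when glutamate binds, and are grouped as AMPA, kainate and NMDA types by resemblance to the vertebrate channels. Metabotropic receptors are G protein-coupled and act more slowly. GLR-1 and NMR-1 are best known from the command interneurons, which drive forward and backward movement by synapsing onto the cholinergic motoneurons. These motoneurons release acetylcholine onto body-wall muscle and onto GABAergic motoneurons.

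Levels are given in FPKM, which counts sequenced fragments per 1000 bases of transcript and per 1000000 mapped fragments, so that levels of different genes can be compared per length. All 10 genes were listed above 0 in both libraries, and none had a level above 17 FPKM in either. Of the 10, only *mgl-2* was over 10 FPKM in both libraries, the limit that the study's methods set for an expressed gene. The same limit was passed by 33.9% of the 19396 annotated protein-coding genes and by 16.5% of all gene symbols. Over 1 FPKM in both libraries were 9 of the 10 genes, against 54.9% of the protein-coding genes. Over 5 FPKM were 3 of the 10 (*mgl-2*, *glr-4* and *glr-5*), against 42.2%, and over 20 FPKM 0 of the 10, against 24.5%. The median of the 10 means was 3.08 FPKM, against 4.28 FPKM over the protein-coding genes, with 4 of the 10 genes above that median and 6 under it. The highest mean of the 10 was 16.3-fold the lowest. On a scale on which each library sums to 1000000 (TPM), *mgl-2* had a mean of 9.01 and none of the 10 passed 10 in both libraries. Each library summed to more than 1000000 FPKM, so 10 in TPM is a stricter limit than 10 FPKM. The share of protein-coding genes that pass it was not computed.

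**Figure D1:**
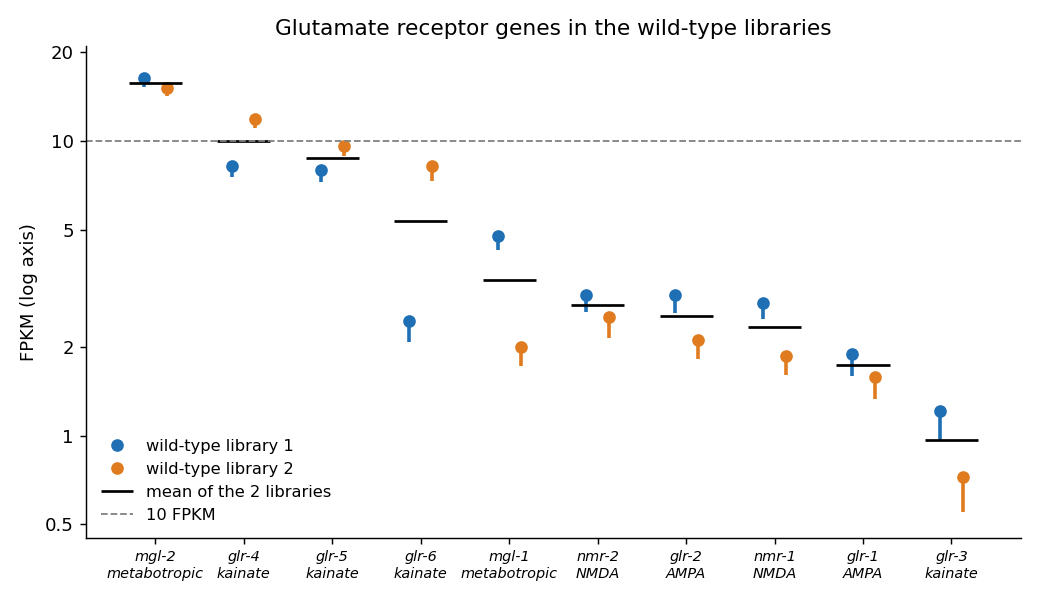
FPKM (log axis) of each of the 10 glutamate receptor genes in the 2 wild-type libraries, ordered by mean. Points are libraries, the line under a point reaches down to the lower bound of its 95% Cufflinks interval, black bars are means over n = 2, and the dashed line is the limit of 10 FPKM. Only *mgl-2* has both points above the limit, and *glr-6* and *mgl-1* have the widest gaps between their points.

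Each gene's lower bound of the 95% Cufflinks interval was above 0 in both libraries for all 10 genes, as for 60.2% of the protein-coding genes. The half-width of the interval below the value ranged from 6.18% of the level for *mgl-2* in library 2 to 24.0% for *glr-3* in library 2. If counting alone set these widths, they would stand for 69.2 fragments on *glr-3* in library 2 at the lowest and for 1046 fragments on *mgl-2* in library 2 at the highest. Read counts were not analysed here, so these are estimates from the widths.

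The highest of the 10 levels was that of a metabotropic receptor gene, *mgl-2* (WBGene00003233). It had 16.3 FPKM in library 1 and 15.1 FPKM in library 2, a mean of 15.7 ± 0.809 FPKM (SD, n = 2). MGL-2 resembles the mammalian group I metabotropic receptors, which act through Gq. The values of *mgl-2* differed 1.08-fold between the libraries, the smallest difference among the 10 genes and within the 2 half-widths added together. Its locus in the deposited values is chromosome I, 10384210 to 10391307, − strand, on the build ce10 named in the submitters' processing notes. In the WBcel235 annotation its longest transcript has 3499 bp, and 554 bp of its exons, or 14.9%, are shared with *maf-1*, which lies on the same strand. The loci for which the deposited values were computed share only 4 bp between the pair. *maf-1* itself had 24.97 FPKM in library 1 and 43.1 FPKM in library 2. Its part in the value of *mgl-2* was not tested.

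*mgl-1* (WBGene00003232, chromosome X, 9968571 to 9974344, ce10), which encodes a receptor like the mammalian group II receptors that act through Gi and Go, had 4.77 FPKM in library 1 and 2.00 FPKM in library 2. Its mean was 3.39 ± 1.95 FPKM (SD, n = 2). The gap was 2.38-fold and 3.58 times the 2 half-widths together, so the libraries lay further apart than Cufflinks' own error. *mgl-1* is known from the AIA interneurons, RMD head motoneurons and the NSM neurons of the pharynx. *mgl-2* was above *mgl-1* in both libraries, by 3.42-fold in library 1 and 7.56-fold in library 2.

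The third metabotropic receptor gene of the worm, *mgl-3*, is not among the 10. It had 9.43 FPKM in library 1 and 38.8 FPKM in library 2, a 4.11-fold gap. *mgl-3* was under *mgl-2* in library 1 and above it in library 2, so the order of these genes was not the same in the libraries.

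Among the ionotropic subunits, the kainate-type genes *glr-4* and *glr-5* had the highest levels. *glr-4* (WBGene00001615, chromosome II, 7785211 to 7794245, ce10) had 8.20 FPKM in library 1 and 11.8 FPKM in library 2, with a mean of 10.0 ± 2.58 FPKM (SD, n = 2). It passed 10 FPKM in library 2 only. *glr-5* (WBGene00001616, chromosome V, 8716517 to 8720468, ce10) had 7.94 FPKM in library 1 and 9.59 FPKM in library 2, with a mean of 8.77 ± 1.17 FPKM (SD, n = 2), and passed in neither. *glr-4* was above *glr-5* in both libraries, by 1.03-fold and 1.23-fold, but their ranges overlapped. These subunits are known from many neurons of the worm, and how they combine into channels is less studied than for GLR-1.

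The span of *glr-4* is the longest of the 10, at 9035 bp, and holds another gene, C06A8.3, named *srlf-1* in WBcel235. C06A8.3 had 777 FPKM in library 1 and 890 FPKM in library 2. In WBcel235 it lies on the other strand and shares no exon base with *glr-4*, and it sits inside 1 intron of *glr-4*. Whether any of its reads were given to *glr-4* was not tested.

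*glr-6* (WBGene00001617, chromosome X, 6836380 to 6840575, ce10) had the largest gap between the libraries of the 10 genes. Its level was 2.44 FPKM in library 1 and 8.24 FPKM in library 2, a 3.38-fold gap that was 4.51 times the 2 half-widths together. The mean was 5.34 ± 4.10 FPKM (SD, n = 2). *glr-6* and *glr-3* are both kainate-type genes known from the RIA interneurons of the head, where their reporters are expressed, and *glr-3* is also known as a cold receptor in the sensory neuron ASER. *glr-3* (WBGene00001614, chromosome I, 7117807 to 7121544, ce10) was the lowest of the 10 genes, at 1.21 FPKM in library 1 and 0.724 FPKM in library 2, with a mean of 0.966 ± 0.342 FPKM (SD, n = 2). It was the 1 gene of the 10 that did not pass 1 FPKM in both libraries. *glr-6* and *glr-3* moved in opposite directions between the libraries, and the level of *glr-6* was 2.02-fold that of *glr-3* in library 1 and 11.4-fold in library 2.

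The AMPA-type and NMDA-type genes were low and close to each other. *glr-1* (WBGene00001612, chromosome III, 8584176 to 8588535, ce10), the AMPA-type subunit that is needed for the response to touch on the nose, had 1.89 FPKM in library 1 and 1.58 FPKM in library 2. Its mean was 1.73 ± 0.221 FPKM (SD, n = 2), and the libraries differed by less than the 2 half-widths together. *glr-2* (WBGene00001613, chromosome III, 7138621 to 7144770, ce10), whose product joins GLR-1 in heteromeric channels, had 2.99 FPKM in library 1 and 2.10 FPKM in library 2, with a mean of 2.55 ± 0.630 FPKM (SD, n = 2). *glr-2* was above *glr-1* in both libraries, by 1.58-fold in library 1 and 1.33-fold in library 2, and the ranges of the pair did not overlap.

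*nmr-1* (WBGene00003774, chromosome II, 5440298 to 5446587, ce10) encodes the subunit like vertebrate NR1, which NMDA-type channels require. It had 2.82 FPKM in library 1 and 1.86 FPKM in library 2, with a mean of 2.34 ± 0.684 FPKM (SD, n = 2). *nmr-2* (WBGene00003775, chromosome V, 15006395 to 15011619, ce10), which encodes the subunit like vertebrate NR2, had 3.01 FPKM in library 1 and 2.52 FPKM in library 2, with a mean of 2.77 ± 0.344 FPKM (SD, n = 2). Of the subunit genes of the NMDA type, *nmr-2* was above *nmr-1* in both libraries, by 1.07-fold in library 1 and 1.36-fold in library 2, but their ranges overlapped.

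By mean level the 10 genes stood in the order *mgl-2*, *glr-4*, *glr-5*, *glr-6*, *mgl-1*, *nmr-2*, *glr-2*, *nmr-1*, *glr-1* and *glr-3*. Of the 9 pairs of neighbours in this order, the ranges of the libraries were apart for 2, *mgl-2* above *glr-4* and *glr-1* above *glr-3*, and overlapped for 7. The order was the same in both libraries for 7 of the 9 pairs. The exceptions were *glr-6* with *mgl-1* and *mgl-1* with *nmr-2*. The 4 genes of the AMPA and NMDA types held neighbouring places near the lower end, with means from 1.73 to 2.77 FPKM.

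Summed by class, the 4 kainate-type genes had 19.8 FPKM in library 1 and 30.4 FPKM in library 2, and the 2 metabotropic genes had 21.1 FPKM in library 1 and 17.1 FPKM in library 2. The 2 NMDA-type genes summed to 5.83 FPKM in library 1 and 4.38 FPKM in library 2, and the 2 AMPA-type genes to 4.88 FPKM and 3.68 FPKM. The AMPA and NMDA types together therefore made up 20.8% of the summed level of the 10 genes in library 1 and 14.5% in library 2. *mgl-2* alone took 31.6% of that sum in library 1 and 27.2% in library 2. These shares do not depend on the scaling of a library. They leave out *mgl-3*, which is not among the 10 and had 9.43 FPKM in library 1 and 38.8 FPKM in library 2. With *mgl-3* counted, the metabotropic sum would be higher in library 2 than in library 1, so the class shares hold for the 10 genes only. The sum over the 10 genes was 51.6 FPKM in library 1 and 55.6 FPKM in library 2, close to the level of *acr-2* alone, which was 58.3 FPKM in library 1 and 53.1 FPKM in library 2.

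**Figure D2:**
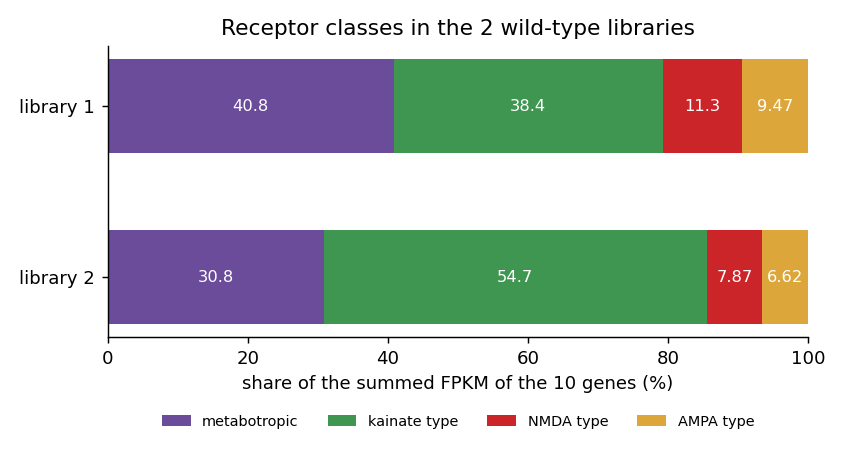
Share of the summed FPKM of the 10 glutamate receptor genes (x axis, percent) taken by each receptor class in each wild-type library. The kainate-type share is 38.4% in library 1 and 54.7% in library 2, and the metabotropic share is 40.8% in library 1 and 30.8% in library 2. The metabotropic gene *mgl-3*, which is not among the 10, is left out.

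Of the 10 genes, 7 had their higher value in library 1, and 3 (*glr-4*, *glr-5* and *glr-6*) in library 2. The median log2 ratio of library 2 over library 1 was −0.26 for the 10 genes and 0.18 for protein-coding genes over 1 FPKM in both libraries, so the typical gene was a little higher in library 2. Relative to the median of all genes over 10 FPKM in both libraries, the same 3 genes were higher in library 2. On the TPM scale *mgl-2* changed sign, to 0.03. No other gene changed sign under TPM, upper-quartile scaling or an added pseudocount. The size of the gaps was close to that of other genes. Over 1 FPKM in both libraries, the median gap was 1.42-fold for 9 receptor genes and 1.47-fold for 10650 protein-coding genes. The libraries lay further apart than the 2 half-widths together for 6 of these 9 genes, against 75.7% of the protein-coding genes, and more than 2-fold apart for 2 of the 9, *glr-6* and *mgl-1*, against 26.4%. Of the protein-coding genes, 91.8% had a smaller gap than *glr-6* and 82.2% a smaller gap than *mgl-1*.

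**Figure D3:**
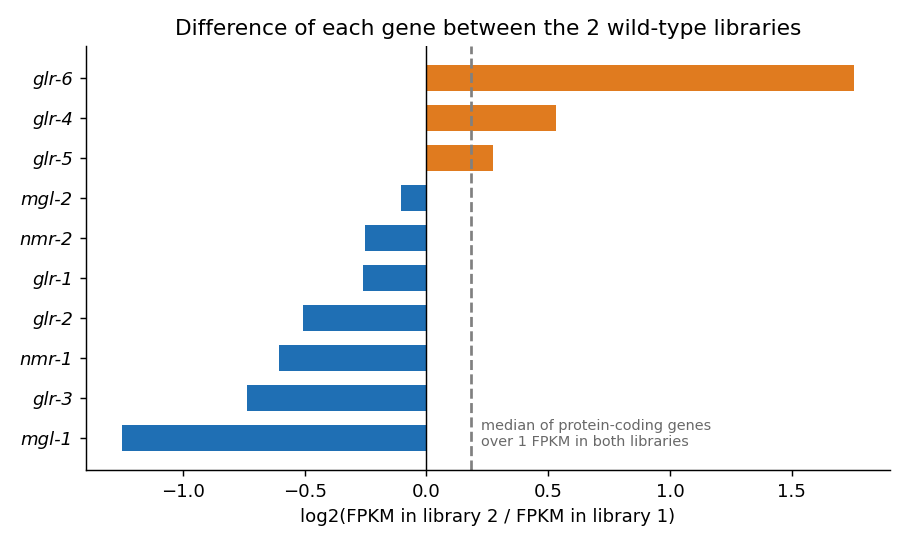
Log2 ratio of FPKM in library 2 over library 1 for each of the 10 genes (bars), with the median of protein-coding genes over 1 FPKM in both libraries as a dashed line at 0.18. The orange bars of *glr-6*, *glr-4* and *glr-5* reach right of the dashed line, from 1.76 to 0.27, and the 7 blue bars lie left of 0, down to −1.25 for *mgl-1*.

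The composition of the libraries was read from marker genes. The core cholinergic genes had a median of 214 FPKM, with all 4 over 10 FPKM in both libraries. Of the genes for ventral cord cholinergic motoneurons 7 of 8 passed, with a median of 85.7 FPKM. The gene that did not was *acr-5*, at 1.56 FPKM in library 1 and 5.90 FPKM in library 2. *acr-2* is in that list, and its promoter drove the GFP by which the cells were sorted. Markers of other neuron classes were present as well. RIM and RIC interneuron genes had a median of 75.6 FPKM, with 3 of 4 over the limit. GABAergic genes had a median of 27.3 FPKM, with 2 of 4 over it and means from 9.73 FPKM for *unc-30* to 381 FPKM for *unc-25*. Markers of the ciliated sensory neurons were near 0, with a median of 0.470 FPKM, 0 of 8 over the limit, and *tax-2* listed at 0 in both libraries. Of non-neuronal tissues, body-wall muscle had 3 of 4 genes over the limit, with a median of 197 FPKM. Germline had 4 of 4 over it, with a median of 73.0 FPKM. Intestine had 2 of 4 over it, with a median of 12.02 FPKM, and hypodermis 1 of 4, with 10.9 FPKM. Pharyngeal muscle had 1 of 3 over it. The highest hypodermis mean was 2433 FPKM, for *col-19*. The lowest germline mean, 48.7 FPKM for *pgl-1*, was above the highest mean of the 10 receptor genes, 15.7 FPKM for *mgl-2*. The myosin genes of pharyngeal muscle, *myo-1* and *myo-2*, had means of 2.19 FPKM and 3.17 FPKM, and 5 of the 10 receptor genes had a mean under the median of the 3 pharyngeal muscle genes, 3.17 FPKM. Of the 10 genes, 4 had a mean above the highest ciliated sensory neuron marker, *gcy-5*, at 3.50 FPKM. What part RNA of other cells has in receptor levels of this size was not tested.

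Most neuronal marker lists stood higher in library 2, the library in which *glr-4*, *glr-5* and *glr-6* had their higher values. Higher there were 9 of 10 pan-neuronal genes (7 after upper-quartile scaling), all 4 core cholinergic genes (2 after that scaling), 7 of 8 ventral cord motoneuron genes and all 4 GABAergic genes. Of the 4 RIM and RIC interneuron genes, 3 were higher in library 2 and *gcy-13* was at 0 in both libraries, and the command interneuron genes were split, 3 and 3. The summed level in library 2 over library 1 was 1.13-fold for the pan-neuronal, 1.35-fold for the core cholinergic and 1.48-fold for the ventral cord motoneuron genes. It was 1.96-fold for the RIM and RIC and 2.52-fold for the GABAergic genes. The sums of the command interneuron and ciliated sensory neuron genes went the other way, at 0.601-fold and 0.789-fold. The first was mostly *flp-18*, at 5960 FPKM in library 1 and 3517 FPKM in library 2. In the second, *gcy-5* had 5.46 of 7.27 FPKM in library 1 and 1.54 of 5.74 FPKM in library 2. Single genes thus weighed on both sums. The typical protein-coding gene over 1 FPKM in both libraries was itself higher in library 2, with a median log2 ratio of 0.18. Outside neurons, all 4 hypodermis genes and 3 of 4 germline genes (2 after upper-quartile scaling) were higher in library 2. Of 4 body-wall muscle genes 2 were higher in library 2, and 1 after that scaling.

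In library 1, where *mgl-1*, *glr-3* and the AMPA-type and NMDA-type genes had their higher values, as did *mgl-2* except in TPM, all 3 pharyngeal muscle genes were higher, with a sum of 31.3 FPKM, against 18.9 FPKM in library 2. So were 3 of 4 intestinal genes. Their sum, 869 FPKM in library 1 and 336 FPKM in library 2, was mostly the yolk protein gene *vit-2*, at 835 FPKM in library 1 and 320 FPKM in library 2, and the transcription factor gene *elt-2* went the other way, at 1.68 FPKM in library 1 and 5.36 FPKM in library 2. Of the 8 ciliated sensory neuron genes, 5 were higher in library 2 and 2 in library 1. Those 2 were *gcy-5*, with 5.46 FPKM in library 1 and 1.54 FPKM in library 2, and *osm-6*, with 0.941 FPKM and 0.735 FPKM. Listed at 0 in library 1 were 5 of the 8 genes, among them *tax-2*, which was at 0 in both libraries. The part of any of these cells in the receptor values was not tested.

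The list for command interneurons, the cells for which *glr-1* and *nmr-1* are best known, held 7 genes, several of them shared with other neurons. Of the 6 that were found, 3 passed 10 FPKM in both libraries: *flp-18*, which encodes neuropeptides, *rig-3*, which encodes an immunoglobulin protein of the cell surface, and *cfi-1*, a transcription factor gene. *flp-18* had a mean of 4739 FPKM, and the study describes its expression in the cholinergic motoneurons as well. *cfi-1* had 19.5 FPKM in library 1 and 60.6 FPKM in library 2. *sra-11* had 2.05 FPKM in library 1 and 0.400 FPKM in library 2. *unc-42*, a homeobox gene needed for expression of *glr-1* in several command interneurons, had 33.3 FPKM in library 1 and 5.35 FPKM in library 2. This was a 6.21-fold gap, while *glr-1* differed 1.20-fold in the same direction. *fax-1*, a nuclear receptor gene needed for *nmr-1* expression in some of these cells, was near 0, at 0.0288 FPKM in library 1 and 0.142 FPKM in library 2.

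The other genes of the glutamate pathway were taken from lists. Of the remaining ionotropic subunit genes of the worm, known from pharyngeal neurons, *glr-7* was listed at 0 in library 1 and had 0.417 FPKM in library 2, and *glr-8* had 2.18 FPKM in library 1 and 0.307 FPKM in library 2. Neither passed 1 FPKM in both libraries, which 9 of the 10 receptor genes did. Among auxiliary proteins of the ionotropic channels, 3 of the 5 genes found passed 10 FPKM in both libraries. These were *cni-1*, which encodes the cornichon that guides receptors out of the endoplasmic reticulum, at 34.7 ± 14.01 FPKM, *sol-1* at 17.2 ± 3.25 FPKM and *sol-2* at 12.3 ± 2.11 FPKM (SD, n = 2 for each). SOL-1 and SOL-2 are CUB-domain proteins that associate with GLR-1 and shape its currents, and both genes were above *glr-1* and *glr-2* in both libraries. The stargazin-like genes were lower, with *stg-2* at 7.47 FPKM in library 1 and 5.00 FPKM in library 2, and *stg-1* at 2.55 FPKM in library 1 and listed at 0 in library 2.

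Of 15 genes known for the transport, recycling or turnover of GLR-1, 13 passed 10 FPKM in both libraries, with a median of 65.5 FPKM, against 3.08 FPKM for the receptor genes themselves. Most of these genes act on many cargoes. They include *unc-43*, which encodes CaMKII, at 336 ± 18.9 FPKM, the kinesin gene *unc-116* at 158 ± 42.2 FPKM and the PDZ protein gene *lin-10* at 70.0 ± 8.05 FPKM (SD, n = 2 for each). The lowest were *usp-46*, which encodes a deubiquitinating enzyme that acts on GLR-1, at 9.37 FPKM in library 1 and 20.9 FPKM in library 2, and its partner gene *wdr-48* at 5.66 FPKM in library 1 and 13.1 FPKM in library 2.

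Inhibitory responses to glutamate in the worm pass through chloride channels of another family. Of their 6 genes, all had over 1 FPKM in both libraries and only *avr-14* passed 10 FPKM in both, at 28.4 ± 8.78 FPKM (SD, n = 2). The vesicular glutamate transporter gene *eat-4*, the mark of cells that release glutamate, had 50.4 FPKM in library 1 and 21.6 FPKM in library 2. Of 7 genes of glutamate release and uptake, 3 passed the limit in both libraries: *eat-4* and the uptake transporter genes *glt-1* and *glt-4*. All 3 were higher in library 1. The remaining uptake genes had means from 0 FPKM for *glt-6* to 1.24 FPKM for *glt-5*. Of these, *glt-5* and *glt-7* were higher in library 2, *glt-3* was higher in library 1, and *glt-6* was at 0 in both.

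**Figure D4:**
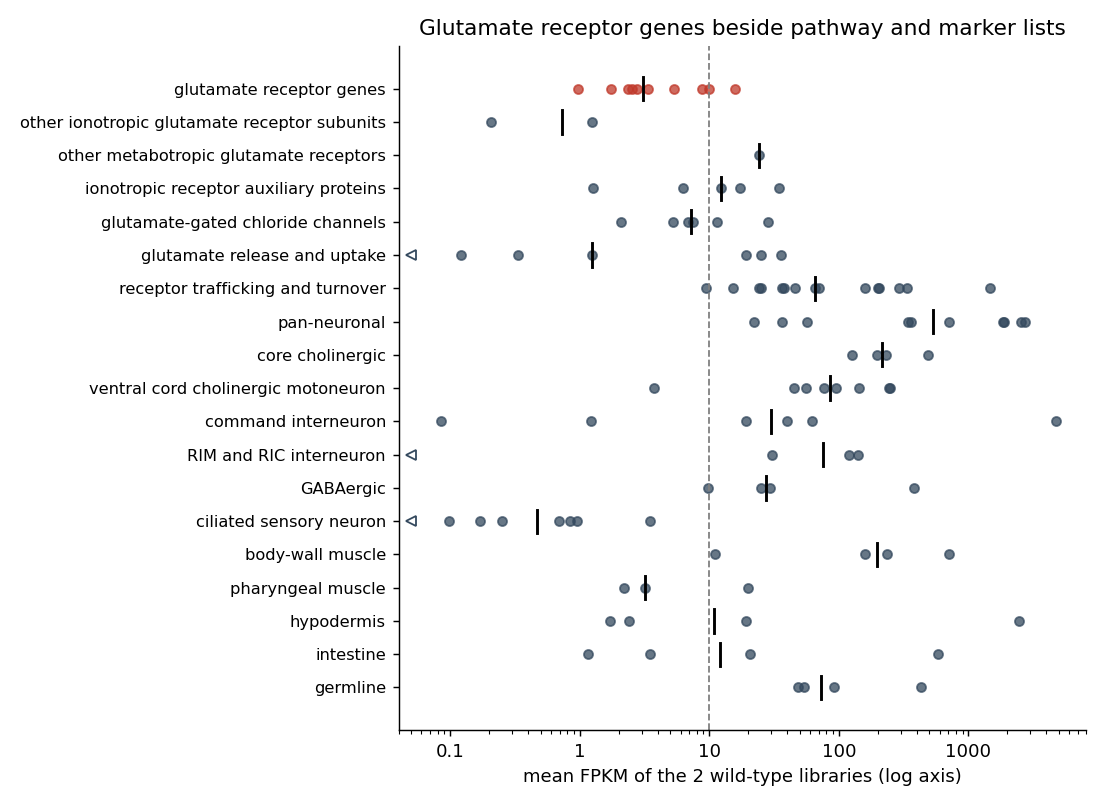
Mean FPKM over the 2 wild-type libraries (log axis) of the 10 glutamate receptor genes (red) and of the genes of 18 pathway and marker lists (dark), 1 point per gene. Black ticks are list medians, open triangles at the left edge are genes at 0, and the dashed line is 10 FPKM. The receptor genes have a median of 3.08 FPKM and lie to the left of the pan-neuronal and core cholinergic genes.

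The gene models of the 10 genes were much alike. In WBcel235 all are protein-coding, their longest transcripts range from 2511 bp for *glr-3* to 3499 bp for *mgl-2*, and they lie on 5 chromosomes. Annotated exons of 8 of the 10 share bases with exons of another gene, and 4 of these share them with a protein-coding gene. For *nmr-1* these are 19 bp shared with F07F6.1 on the other strand, which had 1.90 FPKM in library 1 and 0.669 FPKM in library 2. For *mgl-1* they are 62 bp shared with *pssy-1* on the other strand, at 29.3 FPKM in library 1 and 34.6 FPKM in library 2. *nmr-2* shares 60 bp with *hrde-2* on the other strand, and *mgl-2* its stretch with *maf-1*. These overlaps are of the WBcel235 models. Among the loci for which the deposited values were computed, none overlaps that of *nmr-1* or *nmr-2*. The locus of *mgl-1* does not overlap that of *pssy-1*, and *mgl-2* shares 4 bp with *maf-1*. Whether reads were assigned by strand is not given in the sources used here, so reads from any stretch shared across strands cannot be told apart. Strand would not separate *mgl-2* from *maf-1*.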

How the data were processed

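The authors prepared libraries with the Illumina TruSeq kit, sequenced single-end reads on a HiSeq4000, mapped them with TopHat in Galaxy and computed FPKM with Cufflinks. The deposited FPKM values hold 42518 gene loci per library with the bounds of a 95% interval. Per the labels the build is ce10. Program versions and the annotation are not given in the sources used here. FPKM and its lower bound were used, and 2 columns, the upper bounds, were not. Column names give no sample. The study's design text ascribes the values to wild type, and library numbers follow the numbering of the deposited outputs. Nothing says whether the libraries came from separate cultures, so the SD may be technical.

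The outputs were joined on name, start sites and locus. In library 1, 11 names that had turned into dates were restored from library 2, and a symbol with several loci kept a locus over 10 FPKM or else the highest mean. Wild-type library 1 summed to 1828630 FPKM and library 2 to 1663310 FPKM, and 13107 and 16792 loci were above 0. From interval widths of single-transcript genes over 800 bp, at 2 standard errors, the depth on genes was estimated at 25200000 fragments in library 1 and 30600000 in library 2. With 1 condition no test was run. Members and lists were chosen with earlier results of these data known. All 10 members are named. The 18 lists, 6 of the pathway and 12 of cell type markers, hold 101 genes, of which 99 were found (*nrap-1* and *opt-3* were not). WBcel235 gene models (Ensembl 115) gave exons and biotypes, with RefSeq names for loci they did not match. Alternatives were other FPKM limits, the lower bound, the mean, TPM, upper-quartile scaling over genes above 0 in either library, pseudocounts and leaving out each library. Python 3.11.15, numpy 2.4.6, pandas 2.3.3 and matplotlib 3.10.9 were used.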

Additional observations from a re-analysis of the deposited data

How the results depend on the processing

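No paired analysis was possible because the replicate numbers could be matched only across strains, and libraries of 1 strain were used. The count of receptor genes over the limit in both libraries, 1 at 10 FPKM, was 9 at 1 FPKM, 3 at 5 FPKM and 0 at 20 FPKM, and lower limits let more genes pass by construction. It was 2 by the mean, and 0 on the TPM scale, where 10 is a stricter limit. With a library left out it was from 1 to 2, as *glr-4* passed in library 2 only. The median of the 10 means, 3.08 FPKM, was 1.74 in TPM, where each library is rescaled by a single factor, and from 2.31 to 3.00 with a library left out. In TPM, 8 of the 10 means changed by over 1 SD (all but *glr-6* and *mgl-1*), and 0 of the 10 after upper-quartile scaling. The change to TPM lowers every mean through its unit. *glr-6* and *mgl-1* had the largest SD relative to the mean, so the count does not mark their levels as the steadier ones. TPM shifted every log2 ratio of library 2 over library 1 by 0.14 and upper-quartile scaling by −0.16. Of 99 listed pathway and marker genes, 60 passed, 80 at 1 FPKM, 49 at 20 FPKM and from 63 to 67 with a library left out. Intervals limit single genes most at *glr-3*, and n = 2 limits every SD.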

Other observations

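The genes of the pan-neuronal list also give a scale for the receptor levels. All 10 passed 10 FPKM in both libraries, from a mean of 22.0 ± 13.9 FPKM for the active zone gene *unc-10* to 2740 ± 93.0 FPKM for the synaptobrevin gene *snb-1* (SD, n = 2 for each). The highest of the 10 receptor genes, *mgl-2*, therefore had a lower mean than the lowest pan-neuronal gene of the list. In library 1, however, *unc-10*, at 12.2 FPKM, was under *mgl-2*. The receptor gene *mgl-3*, which is not among the 10, had a mean of 24.1 ± 20.7 FPKM (SD, n = 2), above that of *unc-10*. The mean of *acr-2* was 3.54-fold that of *mgl-2* and 32.1-fold that of *glr-1*.

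Among the chloride channel genes gated by glutamate, *glc-1* had 16.5 FPKM in library 1 and 6.39 FPKM in library 2, and *glc-4* had 10.3 FPKM in library 1 and 3.51 FPKM in library 2, so both passed the limit in library 1 only. *unc-46*, which guides the vesicular GABA transporter to synaptic vesicles, had the widest gap of the GABAergic genes, at 11.96-fold, with 54.4 FPKM in library 2 and 4.55 FPKM in library 1.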
